A study of Mus musculus with 9 samples.

Results

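The 10 core myeloid cell genes Lyz2, Itgam, Csf1r, Adgre1, Cd68, Cd14, Fcgr3, Fcgr1, Fcer1g and Tyrobp were followed through a comparison of 2 sorted fractions of mouse prostate cells. They were taken as a list of named genes, and every array probe annotated to one of them under its current symbol or an older synonym was kept. This gave 18 of 41174 probes, of which 17 were tested, and all 10 genes were among the 19848 genes or transcripts tested. Cells came directly from prostates of BL6 mice and were sorted by FACS (fluorescence-activated cell sorting). Marker-positive cells (3 arrays, stem cells in the labels) were Lin- CD44+CD133+Sca-1+CD117+, and marker-negative cells (6 arrays) were Lin- CD44-CD133-Sca-1-CD117-. By label both fractions were therefore lineage-negative, but which lineage antibodies were used is not stated in the labels. How completely lineage-marked cells were removed was not tested. No treatment, age or genotype beyond the strain is given. RNA was amplified before labelling, and each array set its sample RNA (Cy5) against a pooled mouse reference RNA (Cy3). Values below are log2 ratios of sample over reference, and a difference is the marker-positive mean minus the marker-negative mean.

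Myeloid cells are the macrophages, monocytes, granulocytes and mast cells of the blood lineage, and tissue macrophages reside in most organs, the prostate included. The 10 genes cover how such cells are kept alive, how they adhere and how they sense and digest what they take up. Csf1r is the receptor for the growth factor that sustains macrophages, Itgam is the alpha chain of the integrin Mac-1, and Adgre1 encodes an adhesion receptor long used to mark mouse macrophages. Cd14 binds bacterial lipopolysaccharide, Fcgr1 and Fcgr3 bind the tails of IgG antibodies, and Fcer1g and Tyrobp are short membrane adaptors that carry ITAMs (tyrosine motifs that recruit the kinase Syk) for receptors that cannot signal alone. Lyz2 is a secreted enzyme that cuts bacterial cell walls, and Cd68 is a glycoprotein of lysosomal membranes. CD117, one of the proteins used in the sort, is also carried by mast cells.

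The promoters of these genes are shown because the ETS factor PU.1, encoded by Spi1, is known to act through purine-rich sites at many myeloid promoters. RefSeq promoter sequence of build GRCm38.p6 was read for 6 of the 10 genes. The 250 bases before the start of the 2 genes that passed the test below, Itgam and Lyz2, and of the 2 IgG receptors are printed 5′ to 3′ on the gene's strand. Capitals mark the letters GAGGAA or their reverse complement TTCCTC, a purine-rich form that contains the shorter core GGAA of ETS sites. GGAA outside this form is not marked.
Itgam, chr7:128062390-128062639, plus strand: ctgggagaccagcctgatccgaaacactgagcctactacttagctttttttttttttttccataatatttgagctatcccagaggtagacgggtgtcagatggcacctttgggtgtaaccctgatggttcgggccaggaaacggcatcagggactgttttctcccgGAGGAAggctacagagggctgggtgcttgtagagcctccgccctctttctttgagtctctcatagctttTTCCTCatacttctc
Lyz2, chr10:117282273-117282522, minus strand: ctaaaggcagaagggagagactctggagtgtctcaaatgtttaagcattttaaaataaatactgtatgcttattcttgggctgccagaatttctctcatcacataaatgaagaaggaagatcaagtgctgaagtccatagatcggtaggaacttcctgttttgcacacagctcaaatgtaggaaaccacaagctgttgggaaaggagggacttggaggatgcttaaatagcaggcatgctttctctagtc
Fcgr1, chr3:96293970-96294219, minus strand: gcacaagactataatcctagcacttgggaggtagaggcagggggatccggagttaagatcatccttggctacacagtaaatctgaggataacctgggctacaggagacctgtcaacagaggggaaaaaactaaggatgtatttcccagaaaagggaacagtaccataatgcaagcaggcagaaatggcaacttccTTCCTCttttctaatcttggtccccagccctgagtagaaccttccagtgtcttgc
Fcgr3, chr1:171059395-171059644, minus strand: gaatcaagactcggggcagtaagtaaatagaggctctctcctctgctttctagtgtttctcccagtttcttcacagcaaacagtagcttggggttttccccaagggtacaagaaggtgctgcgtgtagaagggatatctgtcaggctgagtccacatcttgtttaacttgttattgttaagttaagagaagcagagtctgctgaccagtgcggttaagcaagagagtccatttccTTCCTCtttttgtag

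The letters GAGGAA, searched on both strands, lay in the window of 4 of the 6 genes and in 23.3% of 32851 promoter windows of the same length. For the members the count is by gene, over 7 windows, while the percentages in this paragraph are by window. In Itgam these letters began 84 and 15 bases before the start, in Fcgr1 55 bases and in Fcgr3 15 bases before it, and in Cd68 225 bases before it. The windows of Fcgr1 on chromosome 3 and Fcgr3 on chromosome 1 share the 14-letter run ttccTTCCTCtttt. The windows of Lyz2 and Fcer1g do not hold GAGGAA on either strand, but both hold the shorter GGAA, which was not counted. The core TGTGGT of Runx factors, searched on both strands, was found in 1 of the 6 genes, Lyz2, and in 14.0% of all windows. These matches are letters in a window and were not tied to the expression values. Spi1 itself has a probe on the array that did not reach the detection minimum for testing, which was a Cy5 signal well above background on 3 or more arrays.

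All 10 genes had a positive difference between marker-positive and marker-negative cells, and 2 of them, Lyz2 and Itgam, rose by the test, while none fell. The test was limma's moderated test, two-sided, with Benjamini-Hochberg adjustment over all 28330 tested probes and a threshold of 0.05. By the same test 1.57% of the 19848 genes were called higher and 1.67% lower. The median difference was 1.25 over the 10 genes, with a range from 0.30 to 4.88, and -0.01 over all genes tested, of which 48.8% had a positive difference. The marker-positive arrays lay wholly above the marker-negative arrays for the same 2 genes, a separation found for 5.14% of all genes, with 6.47% wholly below. Over probes, 17 of 17 differences were positive and 4 were called higher, against 1.48% of all tested probes called higher and 1.99% called lower, and those were both probes of Lyz2 and both probes of Itgam. In RNA from sorted populations, a larger number of cells of a type and more RNA per cell cannot be told apart.

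**Figure D1:**
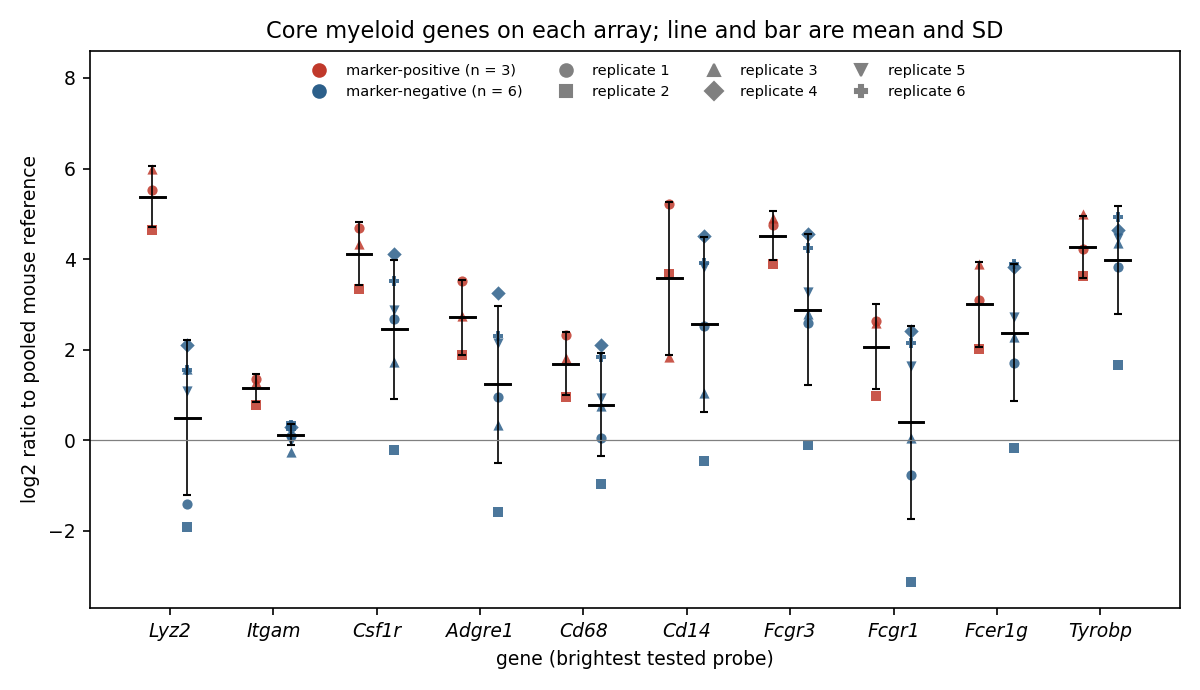
Log2 ratio to the pooled mouse reference (vertical axis) of the brightest tested probe of each gene (horizontal axis), with 1 point per array, shapes for replicates, and the mean and SD of each group in black. Only for Lyz2 and Itgam do the 3 marker-positive points lie above all 6 marker-negative points.

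The labels and the arrays were checked first. Of the genes for the 4 sorted proteins, 3 were called higher in the marker-positive fraction: the Sca-1 gene Ly6a with a difference of 3.93 (limma adjusted p = 0.0132), Cd44 with 2.06 (adjusted p = 0.0166) and the CD117 gene Kit with 3.45 (adjusted p = 0.046). The CD133 gene Prom1 had a difference of -0.44 (SE 0.64, adjusted p = 0.766). Other tested probes had -0.003 and 1.64 for Cd44 and -0.90 for Prom1. With slide as a block the adjusted p was 0.0442 for Ly6a, 0.179 for Cd44 and 0.109 for Kit. Cy5 signal was well above background for 45.4% to 69.3% of probes on marker-positive and 47.5% to 69.4% on marker-negative arrays. Marker-positive replicate 3 stood apart: over all tested probes its log2 ratios correlated at 0.609 and 0.582 with the other marker-positive arrays, which reached 0.923 with each other, and at 0.677 and 0.676 with marker-negative replicates 4 and 6. Without it, 2 of the 10 genes were still called higher. The arrays lay on 5 slides, of which slide 1 (positive 1, negative 1) and slide 2 (positive 2, negatives 2 and 4) held both groups. The difference of every gene's brightest probe was positive within slide 1, from 0.39 to 6.93, and within slide 2, from 0.19 to 4.55. Slide 2 held 2 marker-negative arrays that differed from each other. Marker-positive replicate 2 was above marker-negative replicate 2 for all 10 genes, but below marker-negative replicate 4 for 8 of them, with a difference of -1.81 for Fcer1g, and above it for Lyz2 (2.54) and Itgam (0.50) only. With slide as a fixed block, none of the 10 genes was called, while 128 genes of all tested were called higher. The other slides held 1 group each, so every difference given with slide as a block rests on slides 1 and 2 alone. With slide as a random block, 2 of the 10 genes were called higher. Nothing in the labels ties the arrays to separate animals, so the spread behind every p-value here is that between these samples and may be technical.

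Lyz2 stood highest among the differences. Its brightest probe (chr10:116785279-116785338, build mm7, in the annotation of the array) gave log2 ratios of 5.52, 4.64 and 5.98 on marker-positive replicates 1, 2 and 3. On the marker-negative arrays the lowest value was -1.92, the median 1.31 and the highest 2.10. Every marker-positive array was far above every marker-negative one, and among the latter replicates 1 and 2 lay well below the other 4. The means were 5.38 ± 0.68 (SD, n = 3) and 0.50 ± 1.71 (SD, n = 6), a difference of 4.88 (SE 0.90, 29.5-fold, limma adjusted p = 0.0215), with 95% interval 2.86 to 6.90. With slide as a block it was 5.57 (adjusted p = 0.132), and the adjusted p was 0.0911 without marker-positive replicate 1 and 0.0629 without marker-positive replicate 2.

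The other Lyz2 probe (chr10:116790004-116790063, mm7) read 2.55, 1.24 and 3.65 on the marker-positive arrays. On the marker-negative arrays it ran from -1.51 through a median of -0.54 to -0.37, and it was well above background on 3 of these 6. The groups again did not overlap, and the difference was 3.29 (SE 0.51, 9.79-fold, limma adjusted p = 0.00999). Lyz1, a neighbouring lysozyme gene with a near-identical sequence, had a difference of 5.11 (SE 0.997, adjusted p = 0.0268), and with slide as a block 5.93 (adjusted p = 0.141). Its log2 ratios correlated with those of Lyz2 at 0.997 over the 9 arrays. How far each probe reports one or the other lysozyme gene is uncertain, so both are read here as lysozyme signal.

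Cd68, the other lysosomal gene, was measured by 1 probe (chr11:69746386-69746445, mm7). Its log2 ratios were 2.32, 0.95 and 1.81 on marker-positive replicates 1 to 3, and the marker-negative arrays ran from -0.97 through a median of 0.85 to 2.10. The groups overlapped, with 2 of 6 marker-negative arrays above the lowest marker-positive one. The difference was 0.91 (SE 0.64, limma adjusted p = 0.484), and its 95% interval from -0.52 to 2.34 includes both no difference and one of more than 2 log2 units. It was 0.60 without marker-positive replicate 1 and 0.56 without marker-negative replicate 2.

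Of 13 tested genes of lysosomes and the phagocyte oxidase, 12 had a positive difference, with a median of 1.23, and 1 rose by the test. That gene was Lyz1. Next in order of adjusted p were the protease gene Ctsb, with a difference of 1.95 (SE 0.62, adjusted p = 0.119), and Lamp2, a lysosomal membrane protein, with 0.87 (SE 0.31, adjusted p = 0.157). The other tested probe of Ctsb had 2.70, while the 2 others of Lamp2 had -0.07 and 0.04. At an unadjusted p under 0.05, 4 of the 13 were higher and 0 lower, where 9.72% of all 19848 genes were higher and 9.83% lower. These shares are the background for each list's count at that threshold below.

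Itgam was the second gene that rose. Its brightest probe (chr7:124213977-124214037, mm7) read 1.35, 0.79 and 1.30 on marker-positive replicates 1 to 3. The marker-negative arrays lay between -0.26 and 0.34, with a median of 0.19, and the probe was well above background on 3 of them. Here the marker-negative log2 ratios were tightly grouped, at a probe that was dim on these arrays, and all marker-positive arrays lay above them. Means were 1.15 ± 0.31 (SD, n = 3) and 0.13 ± 0.23 (SD, n = 6), and the difference was 1.02 (SE 0.19, 2.03-fold, limma adjusted p = 0.0215; 95% interval 0.60 to 1.44).

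The second Itgam probe (chr7:124214519-124214578, mm7) read 3.45, 2.59 and 1.68 on the marker-positive arrays. On none of the marker-negative arrays was it well above background, and its log2 ratios there had a median of 0.08 and reached 0.68. The marker-positive signal was an estimated 5.42-fold higher or more (limma adjusted p = 0.00651). The measured difference was 2.44, with means of 2.57 and 0.14 and a 95% interval from 1.68 to 3.20. Such bounds are point estimates that allow for signal lost in background, not for the spread between arrays. Each is the smaller of 2 folds. The first is that of the log2 ratios, and the other that of the Cy5 signal over the lowest signal detected on the dim arrays. With no dye swap they are open to dye bias. The reference was itself well above background on 3 of 9 arrays for this probe, so its log2 ratio is less certain than that of the other probe. The Itgam call was lost with slide as a block (0.82, adjusted p = 0.244), without marker-positive replicate 1 (0.92, adjusted p = 0.108) and without marker-negative replicate 1 (1.01, adjusted p = 0.0507).

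Among 7 tested genes of beta2 integrins and their ligands and activators, 6 had a positive difference, with a median of 0.97, and 0 were called in either direction, while 3 were higher and 0 lower at an unadjusted p under 0.05. Itgb2, the beta chain that pairs with Itgam in Mac-1, had a difference of 1.19 (SE 0.61, limma adjusted p = 0.319). The ligand genes Icam2 and Icam1 had differences of 1.97 (adjusted p = 0.129) and 1.97 (adjusted p = 0.148), and Tln1, which encodes the integrin-activating protein talin, 0.71 (adjusted p = 0.157). The other tested probe of Icam1 had 1.68, while the 2 others of Tln1 had 0.03 and 0.10.

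**Figure D2:**
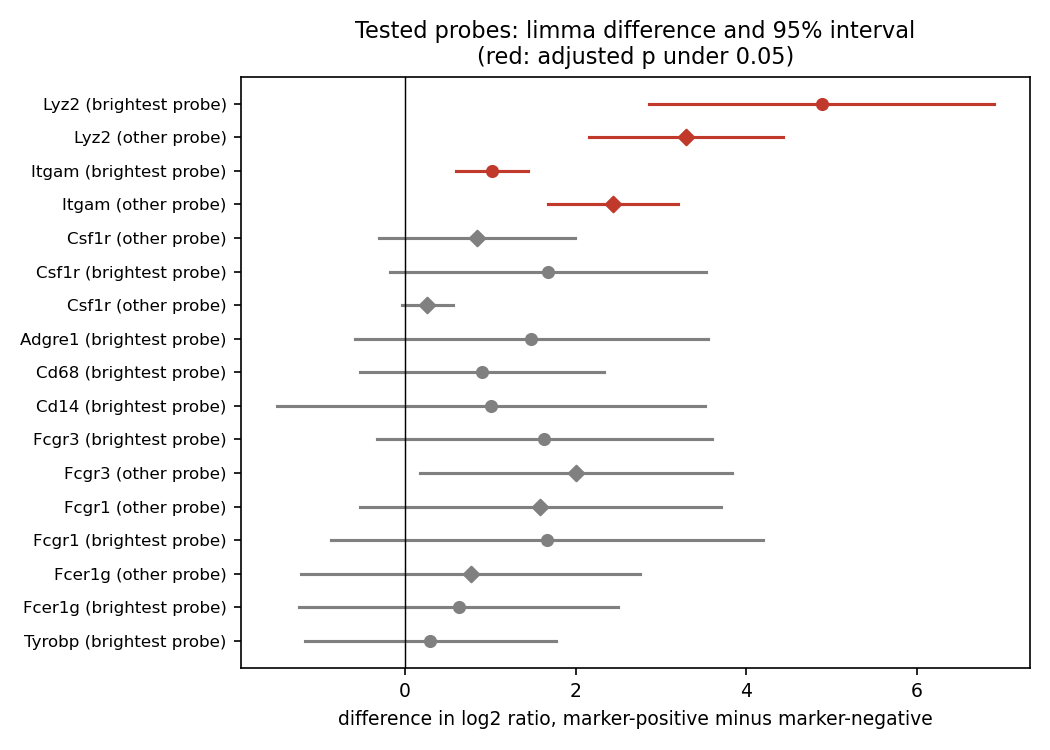
Difference in log2 ratio, marker-positive minus marker-negative (horizontal axis), for the 17 tested probes, with limma's 95% interval as a bar, circles for the brightest probe of a gene and diamonds for its other probes. The 4 red probes of Lyz2 and Itgam passed the threshold, and 1 further interval, that of the second Fcgr3 probe, lies above 0.

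Csf1r was read by 3 probes. The brightest gave 4.69, 3.33 and 4.34 on marker-positive replicates 1 to 3, and the marker-negative arrays ran from -0.22 through a median of 2.78 to 4.12. Marker-negative replicate 2 was far below all others, and 2 of the 6 marker-negative arrays exceeded the lowest marker-positive one. The difference was 1.67 (SE 0.83, 3.19-fold, limma adjusted p = 0.304; 95% interval -0.18 to 3.53). The other probes had differences of 0.84 (SE 0.51, adjusted p = 0.409) and 0.26 (SE 0.13, adjusted p = 0.327). For the last of these the groups did not overlap, but its signal was well above background on 2 marker-positive and 2 marker-negative arrays only.

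For Adgre1, the tested probe (chr17:55686649-55686708, mm7) gave 3.52, 1.87 and 2.74 on marker-positive replicates 1 to 3. Marker-negative values ran from -1.59 through a median of 1.55 to 3.25. The groups overlapped, with 3 of 6 marker-negative arrays above the lowest marker-positive one. The difference was 1.48 (SE 0.93, limma adjusted p = 0.424; 95% interval -0.59 to 3.55), and 0.92 without marker-negative replicate 2. A second probe annotated to Adgre1 was not well above background in Cy5 on any array and was not tested.

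In the list of colony-stimulating factor receptors and myeloid transcription factors, 10 of 10 tested genes had a positive difference, with a median of 0.97, and 1 rose by the test. This was Csf3r, the receptor of the granulocyte growth factor, with a difference of 1.58 (SE 0.30, limma adjusted p = 0.0250) and with slide as a block 1.30 (adjusted p = 0.265). Its signal was well above background on 1 of the 6 marker-negative arrays, so the difference is set largely against background. Csf2rb, the shared beta chain of the GM-CSF, IL-3 and IL-5 receptors, had 2.40 (SE 0.59, adjusted p = 0.0583) at its brightest probe, with no overlap between the groups. Its other tested probe went the other way, with -0.81. The transcription factor gene Cebpb had 2.33 (adjusted p = 0.114). Csf1, which encodes the Csf1r ligand, had 0.75 (SE 0.72, adjusted p = 0.623). At an unadjusted p under 0.05, 4 of the 10 were higher and 0 lower.

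Cd14 varied most among the marker-positive arrays. Its log2 ratios were 5.21, 3.67 and 1.84 on replicates 1 to 3, and the marker-negative arrays ran from -0.45 through a median of 3.17 to 4.51. Marker-positive replicate 3 lay below 4 of the 6 marker-negative arrays. The difference was 1.01 (SE 1.12, limma adjusted p = 0.681; 95% interval -1.50 to 3.52), 2.09 with slide as a block, 0.19 without marker-positive replicate 1, 1.88 without marker-positive replicate 3 and 0.41 without marker-negative replicate 2.

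Around Cd14, 7 of 8 tested genes of lipopolysaccharide recognition had a positive difference, with a median of 0.90, and 1 rose by the test. Myd88, the adaptor below the Toll-like receptors, had a difference of 1.33 (SE 0.29, limma adjusted p = 0.0413) and with slide as a block 1.37 (adjusted p = 0.126). Lbp, the serum protein that hands lipopolysaccharide to Cd14, had 1.60 (adjusted p = 0.206). Ly96, the co-receptor MD-2, had 0.93 (adjusted p = 0.213) and Tlr4 0.86 (adjusted p = 0.230). At an unadjusted p under 0.05, 4 of the 8 were higher and 0 lower.

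Fcgr3 had similar differences at both probes. The brightest (chr1:171027992-171028067, mm7) gave 4.74, 3.90 and 4.91 on marker-positive replicates 1 to 3, and the marker-negative arrays ran from -0.11 through a median of 3.03 to 4.55. The marker-positive arrays were close together, and 2 of the 6 marker-negative arrays reached into their range. The difference was 1.63 (SE 0.88, limma adjusted p = 0.346; 95% interval -0.33 to 3.60), and 1.03 without marker-negative replicate 2. The other probe (chr1:171030474-171030533, mm7) had 2.005 (SE 0.82, adjusted p = 0.216; 95% interval 0.17 to 3.84), and the authors' deposited table lists an adjusted p of 0.0435 for it.

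Fcgr1, the high-affinity IgG receptor, had the widest spread of the 10 genes in marker-negative cells. Its brightest probe (chr3:96156859-96156905, mm7) gave 2.63, 0.98 and 2.58 on marker-positive replicates 1 to 3 and ran from -3.13 through a median of 0.85 to 2.42 on marker-negative arrays. The values of 3 of 6 marker-negative arrays lay above the lowest marker-positive one. The difference was 1.67 (SE 1.13, limma adjusted p = 0.465; 95% interval -0.86 to 4.20), and 0.96 without marker-negative replicate 2. The other Fcgr1 probe had 1.59 (SE 0.95, adjusted p = 0.400).

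Fcer1g, the gamma chain through which Fcgr1 and Fcgr3 signal, differed less. Its brightest probe (chr1:171199756-171199815, mm7) gave 3.11, 2.02 and 3.89 on marker-positive replicates 1 to 3, and the marker-negative arrays ran from -0.17 through a median of 2.50 to 3.88. Nearly the whole marker-positive range lay inside the marker-negative one, with 4 of 6 marker-negative arrays above the lowest marker-positive one. The difference was 0.63 (SE 0.84, limma adjusted p = 0.743; 95% interval -1.24 to 2.50), and 0.77 (SE 0.89, adjusted p = 0.696) at a second probe that overlaps it in position. Without marker-positive replicate 2 the first of these was 1.12, without marker-positive replicate 3 it was 0.19, and without marker-negative replicate 2 it was 0.12.

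Tyrobp, the adaptor DAP12 of TREM and NK cell receptors, had the smallest difference. Log2 ratios were 4.22, 3.62 and 4.99 on marker-positive replicates 1 to 3, and the marker-negative arrays ran from 1.66 through a median of 4.41 to 4.92. Apart from marker-negative replicate 2, the groups covered nearly the same range, and 5 of 6 marker-negative arrays were above the lowest marker-positive one. The difference was 0.30 (SE 0.66, limma adjusted p = 0.860; 95% interval -1.17 to 1.77), and it was 0.62 without marker-positive replicate 2 and turned to -0.17 without marker-negative replicate 2 and to -0.06 without marker-positive replicate 3. Tyrobp and Fcer1g are also known from NK cells, and the NK and T cell list, described below with its values, was lower in marker-positive cells. Its part in these differences was not tested.

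Further Fc receptors and ITAM partners were taken as a list. Of 14 tested, 11 had a positive difference, with a median of 1.48, and 1 rose by the test. Fcgrt, which encodes the neonatal Fc receptor and is also expressed outside the myeloid lineage, had a difference of 2.84 (SE 0.48, limma adjusted p = 0.0148) and with slide as a block 3.24 (adjusted p = 0.0886). Trem3, well above background on none of the marker-negative arrays, was an estimated 8.004-fold higher or more in the mean of marker-positive cells (adjusted p = 0.0516). The measured difference was 3.31 (SE 0.78). Its log2 ratios were 1.41, 1.58 and 5.64 on marker-positive replicates 1 to 3, so that replicate 3 lay far above the others. With slide as a block, where replicate 3 does not enter the difference, Trem3 had a smaller difference of 2.13 (limma adjusted p = 0.0297). The inhibitory IgG receptor gene Fcgr2b had 1.49 (SE 0.36, adjusted p = 0.0581) at its brightest probe and between 2.91 and 3.01 at its 2 other tested probes. Trem2, a receptor that signals through Tyrobp, had 2.07 (SE 0.57, adjusted p = 0.0820), with no overlap between the groups. At an unadjusted p under 0.05, 7 of the 14 were higher and 0 lower.

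Among 13 tested ITAM signalling genes, 11 had a positive difference, with a median of 0.93, and 1 rose by the test. Syk, the kinase that docks on phosphorylated ITAMs, had a difference of 2.53 (SE 0.54, limma adjusted p = 0.0359) and with slide as a block 2.48 (adjusted p = 0.259). Pik3cg and the kinase gene Btk had 1.49 (adjusted p = 0.230) and 1.49 (adjusted p = 0.238). At an unadjusted p under 0.05, 3 of the 13 were higher and 0 lower.

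Whether the 10 genes differed by unequal amounts was tested for all 45 pairs, on the difference between both log2 ratios within each array, by an exact permutation test over the 84 splits of the arrays into 3 and 6, two-sided. The smallest p this allows is 0.0238, so that 22 of the 45 pairs would have to reach it before any passed the adjustment. After Benjamini-Hochberg adjustment over the 45 pairs, 0 passed, with a smallest adjusted p of 0.107, and 14 had an unadjusted p under 0.05. Of those 14, 9 were the pairs of Lyz2 with each other gene, for example 4.59 more for Lyz2 than for Tyrobp and 4.25 more than for Fcer1g. The remaining 5 set Fcgr3, Csf1r or Fcgr1 above Fcer1g, or Fcgr3 or Csf1r above Tyrobp. Fcgr3 exceeded Tyrobp by 1.34 and Fcer1g by 1.004.

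Over the 9 arrays most of the genes varied together. Pearson correlations of log2 ratios between the 10 genes had a median of 0.80 over 45 pairs, and 14 pairs were above 0.9. The highest was 0.98 between Csf1r and Adgre1, and the lowest 0.14 between Itgam and Tyrobp. These values are given as a description of 9 arrays that share the sort, the reference RNA and the amplification, and they include the difference between groups.

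**Figure D3:**
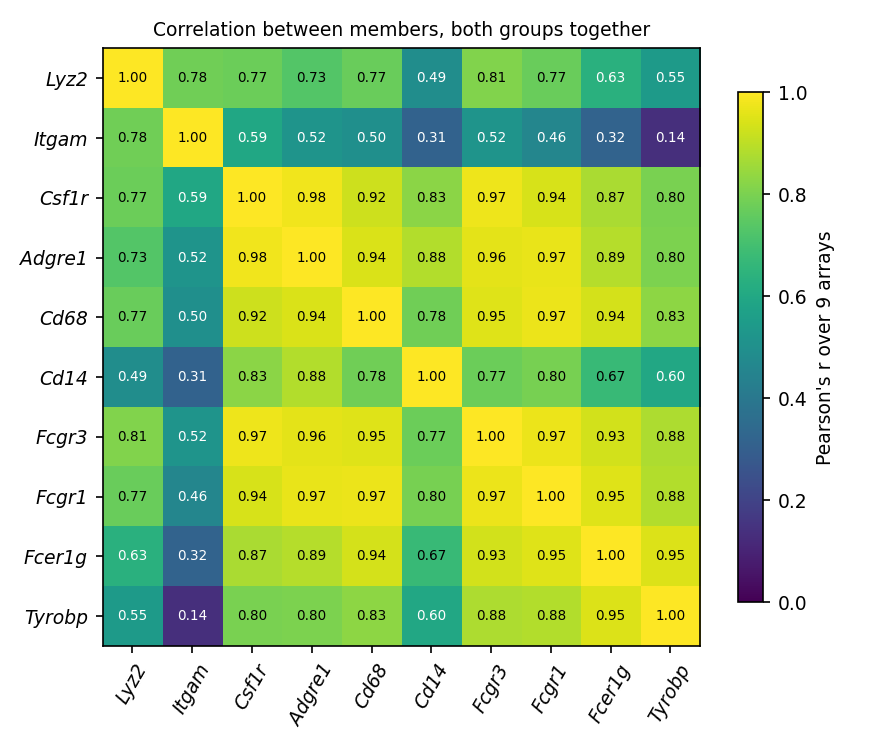
Pearson's r of log2 ratios over the 9 arrays for each pair of the 10 genes, on a colour scale from 0 to 1 with the value in each square. Itgam and Lyz2 have lower values with Fcer1g and Tyrobp than Csf1r, Adgre1, Cd68, Fcgr3 and Fcgr1 have.

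Most of the genes put the arrays in a like order. The mean log2 ratio over the 10 genes was 3.73, 2.58 and 3.44 on marker-positive replicates 1 to 3. On marker-negative replicates 1 to 6 it was 1.23, -0.66, 1.46, 3.18, 2.29 and 2.86. Marker-negative replicates 4 and 6 therefore lay above marker-positive replicate 2. Marker-negative replicate 2 was the lowest of its group for 9 of the 10 genes, the exception being Itgam, and replicate 4 was the highest for 7 and replicate 6 for 3. In the marker-positive group, replicate 2 was lowest for 9 genes, the exception being Cd14.

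Genes of leukocytes in general followed a like order. The mean of 10 pan-leukocyte genes was 1.94, 1.15 and 3.06 on marker-positive replicates 1 to 3. It was -0.99 on marker-negative replicate 2, between 0.69 and 1.39 on replicates 1, 3 and 5, and 2.64 and 2.48 on replicates 4 and 6. All 10 had a positive difference, with a median of 0.93, but 0 were called in either direction by limma, and 1 was higher and 0 lower at an unadjusted p under 0.05. Laptm5 came nearest, with 1.92 (SE 0.74, adjusted p = 0.192). The part of overall leukocyte content in the differences of the 10 myeloid genes was not tested.

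**Figure D4:**
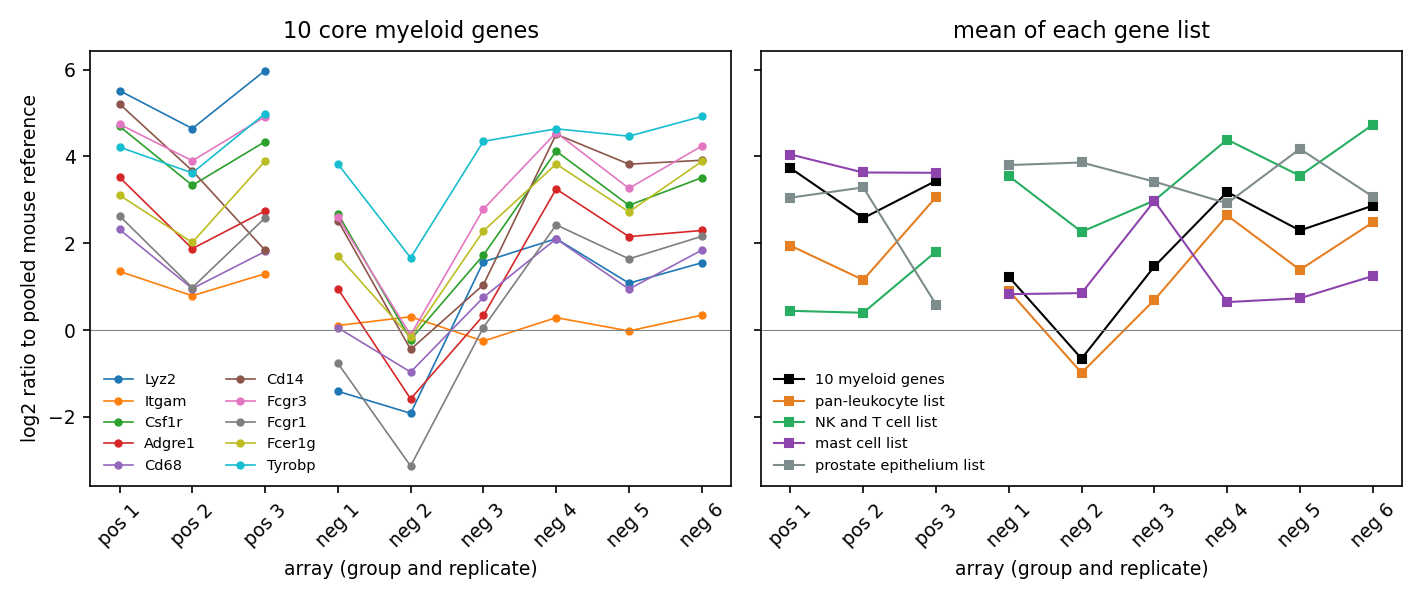
Log2 ratio to the pooled mouse reference (vertical axis) on each array (horizontal axis; pos and neg are marker-positive and marker-negative replicates), for the 10 genes on the left and for the means of the 10 genes and of 4 marker lists on the right. Lines join values of 1 gene or list and imply no order of replicates, and marker-negative replicate 2 is the low point of 9 of the 10 genes.

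Markers of particular myeloid and other cell types did not all move as the 10 genes did. Of 11 tested macrophage markers, 9 had a positive difference, with a median of 0.47, and 3 rose by the test. The scavenger receptor Cd163 and the mannose receptor Mrc1 were each well above background on none of the marker-negative arrays. They were an estimated 60.8-fold and 50.1-fold higher or more in marker-positive cells (limma adjusted p = 9.85e-06 and adjusted p = 0.000118). Their measured differences were 5.93 (SE 0.24) and 6.01 (SE 0.38). Timd4, a receptor for phosphatidylserine on dying cells, had a difference of 3.54 (SE 0.38, adjusted p = 0.00208) and with slide as a block 3.48 (adjusted p = 0.0643). With slide as a block the difference was 5.64 for Cd163 (limma adjusted p = 0.0247), smaller than that behind its bound, and 5.98 for Mrc1 (adjusted p = 0.0288). The complement gene C1qb, by contrast, had 0.75 (SE 0.86, adjusted p = 0.696). The markers with a negative difference were Cx3cr1 with -0.52 (SE 0.62, adjusted p = 0.706) and Mertk with -0.40 (SE 0.76, adjusted p = 0.834). At an unadjusted p under 0.05, 3 of the 11 were higher and 0 lower.

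Of 9 tested mast cell markers, 8 had a positive difference, with a median of 2.49, and 3 rose by the test. Tpsb2, a mast cell tryptase, had 2.45 (SE 0.29, limma adjusted p = 0.00268) and Cpa3, a mast cell carboxypeptidase, 5.73 (SE 1.15, adjusted p = 0.0289). Fcer1a, the IgE-binding chain that is expressed together with Fcer1g, had 3.81 (SE 0.46, adjusted p = 0.00342). With slide as a block the adjusted p was 0.048 for Tpsb2, 0.178 for Cpa3 and 0.0521 for Fcer1a. Cpa3 was well above background on 3 of the 6 marker-negative arrays. The list mean was 3.62 to 4.04 on marker-positive and 0.64 to 2.97 on marker-negative arrays, highest among the latter on replicate 3. Mast cells also carry Fcer1g, and the part of these markers in its difference was not tested. At an unadjusted p under 0.05, 6 of the 9 were higher and 0 lower.

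Neutrophil markers were measured in part only, with 5 of 11 tested. All 5 had a positive difference, with a median of 0.53, and 0 were called in either direction, or at an unadjusted p under 0.05. The mean of these 5 was 2.05 on marker-positive replicate 1 and 2.88 on marker-negative replicate 3, and between -0.42 and 0.35 on the other 7 arrays. The highest values of this list thus fell on single arrays of either group.

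NK and T cell markers went the other way. Of 14 tested, 6 fell and 0 rose by the limma test, with a median difference of -2.23 and 2 positive differences. Gzmb, a protease of cytotoxic granules, differed by -5.12 (SE 0.28, adjusted p = 7.29e-05), Gzma by -6.65 (SE 0.91, adjusted p = 0.00567) and the T cell receptor subunit gene Cd3d by -5.27 (SE 0.88, adjusted p = 0.0139). Gzma was well above background on 1 of the 3 marker-positive arrays and Cd3d on 2, so their differences are set partly against background. With slide as a block Gzmb still passed (adjusted p = 0.0297), while Gzma (adjusted p = 0.113) and Cd3d (adjusted p = 0.0994) did not. The list mean was 0.40 to 1.81 on marker-positive and 2.26 to 4.73 on marker-negative arrays, and on the latter it was highest on replicates 6 and 4 and lowest on replicate 2. The 10 myeloid genes had their highest and lowest means on the same 3 marker-negative arrays. Of 5 B cell markers, 3 had a positive difference, with a median of 0.13, and 0 were called, with 0 higher and 1 lower at an unadjusted p under 0.05.

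The remaining cell types were measured for the same reason. Of 10 prostate epithelium markers 1 rose, Trp63 with 2.02 (adjusted p = 0.0446; well above background on 2 of 6 marker-negative arrays), and 2 fell, Msmb with -5.24 (adjusted p = 0.00532) and Pbsn with -1.99 (limma adjusted p = 0.0384). The epithelial list mean was 3.05, 3.29 and 0.59 on marker-positive replicates 1 to 3, so that replicate 3 was low, and 2.92 to 4.17 on marker-negative arrays. Of 7 fibroblast markers, all had a positive difference, with a median of 1.26, and 0 were called, with 2 higher and 0 lower at an unadjusted p under 0.05. Of 6 tested endothelial markers, 5 had a positive difference, with a median of 2.53, and 2 rose by the test, Vwf with 3.99 (adjusted p = 0.00843) and Ly6c1 with 3.63 (adjusted p = 0.0218). The endothelial list mean was 3.55, 4.90 and 1.24 on marker-positive replicates 1 to 3, and 0.64 to 1.51 on marker-negative arrays. With slide as a block, of the 5 epithelial and endothelial genes called here, Ly6c1 alone passed (limma adjusted p = 0.0495). The part of other cell types in the differences of the 10 genes was not tested.

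**Figure D5:**
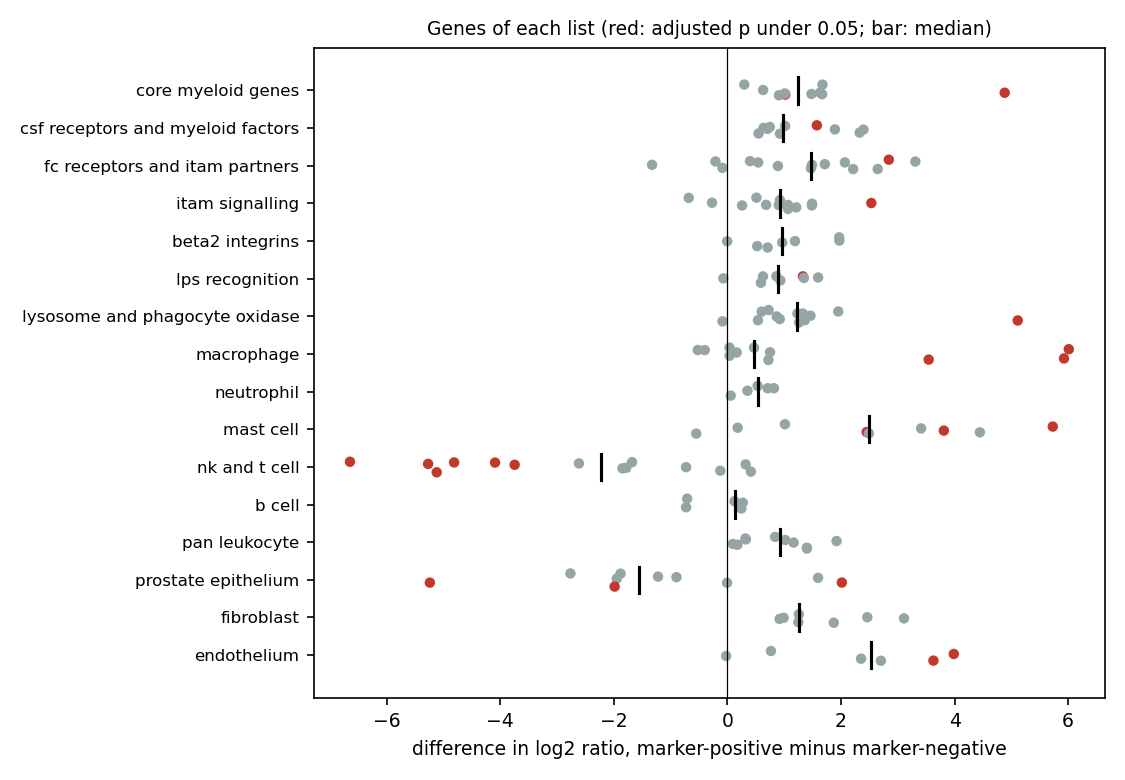
Difference in log2 ratio, marker-positive minus marker-negative (horizontal axis), of each tested gene in the core myeloid list and 15 further lists, with red points for an adjusted p under 0.05 and a black bar at the median. Core myeloid genes have a median of 1.25 with 2 red points, mast cell markers 2.49 with 3, and NK and T cell markers -2.23 with 6.

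The genes whose pattern over the 9 arrays was most like that of 4 of the members were found by Pearson's correlation of log2 ratios among all tested genes, as a description. For Csf1r they included Efhd2 (0.991) and the scavenger receptor gene Cd36 (0.991), whose difference was 1.99 (limma adjusted p = 0.308). For Fcer1g they were Rgs10 (0.991), C1qb (0.987) and 9930038B18Rik (0.983). For Tyrobp they were the channel gene Trpv2 (0.978), Cd83 (0.974) and Aif1 (0.974), a gene of macrophages and microglia. For Lyz2 they were Lyz1 (0.997), Sult1a1 (0.986) and the transcript listed as AK033780 (0.980). These values rest on 9 arrays and on a search over all genes tested.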

How the data were processed

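The deposited scanner files hold unnormalized spot intensity for the Cy5 and Cy3 channels; the software was Agilent Feature Extraction, version 10.7 in the submitters' processing notes and 10.7.3.1 per the file headers. The authors' deposited table holds a log2 difference, p-value, adjusted p-value, score columns and a signed fold, with a normalization not given in the sources used here. In limma 3.58.1 (R 4.3.3), mean signals went through normexp (offset 50) and loess within arrays, with control spots at weight 0 and outlier spots missing. A probe was tested if its Cy5 signal was well above background on 3 or more arrays (28330 of 41174), with variance trend and robust estimation. A gene was represented by its brightest tested probe, and 8440 probes kept the name in the file. Each list's 3 genes of smallest adjusted p, 8 direct partners, 4 sort genes and the 3 genes most alike to 4 members were named, except 1 that is not reported here. Members and lists were chosen with earlier results of these data known. Probe coordinates are those of the header's build mm7:NCBI35:Aug2005. Alternatives covered background, normalization, filter, variance model, array weights, slide, probe rule and each array left out. The number of arrays limits the precision. The procedure was tested on simulated data whose noise was independent between arrays. These held no slide effect and no outlying array, so the procedure was not tested against either. Plots were drawn with matplotlib 3.10.9.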

Additional observations from a re-analysis of the deposited data

Results flagged for a closer look

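Tyrobp on marker-negative replicate 2 lay far from the rest of its group, with a log2 ratio of 1.66 against 3.83 for the nearest of the other 5 arrays. That gap was 0.664 of the group's range, above Dixon's critical value of 0.625 for 6 arrays. Among 18 probes tested this way 1 was picked out, and chance alone picks about 1 in 20. The same array was the lowest of its group for 9 of the 10 genes, and leaving it out turned the Tyrobp difference to -0.17.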

How the results depend on the processing

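Of the 10 genes, 2 were called higher in the main setting and in 15 of 23 alternatives. The count was 1 with the scanner's processed signals, 1 with median centring and 1 with detection in both channels on all arrays, where Itgam was not tested. It was 0 with slide as a fixed block and 0 on slides with both groups. These 2 settings give the same differences, because both contrast the groups on the same slides. With slide as a random block the count stayed 2. Leaving out single arrays gave 0 to 2, with 0 without marker-positive replicate 1, and 1 without marker-positive replicate 2 or marker-negative replicate 1. None was called lower in any of the 23. Over all genes the counts of 312 higher and 331 lower became 141 and 85 with median centring, 2200 and 2264 with array weights, 128 and 20 with slide as a fixed block, and 0 and 0 on slides with both groups. They ran from 98 to 933 and from 87 to 498 with single arrays left out. The cause was not tested.

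Lyz2 ranged from 4.09 to 5.57 and lost its call with slide as a fixed block (adjusted p = 0.132), on slides with both groups (adjusted p = 0.191) and without marker-positive replicate 1 or 2. Itgam ranged from 0.80 to 1.91 and lost it with processed signals (adjusted p = 0.113), median centring (adjusted p = 0.097), slide as a fixed block, on slides with both groups (adjusted p = 0.215), and without marker-positive or marker-negative replicate 1. Tyrobp reached 0.62 without marker-positive replicate 2, and turned to -0.06 without marker-positive replicate 3 and to -0.17 without marker-negative replicate 2, while no other difference of the 10 genes changed sign in any alternative. No member other than Lyz2 and Itgam was called in any of them. The count of pairs with unequal change was 0 in 12 alternatives, which says nothing about stability because 22 pairs at the smallest p, or 33 without a marker-negative array, would be needed for any to pass. Leaving out a marker-positive array was not run because 28 splits cannot reach the threshold. No paired analysis was possible because the labels give no replicate numbers, and slides that held both groups were used as a block instead. The replicate numbers used here follow the order of the samples within each group and do not pair arrays. Differences of dim probes, such as both of Itgam in marker-negative cells, are limited by signal over background.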

Other observations

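In the authors' deposited table the log2 difference and the signed fold of stem over non-stem cells have opposite signs in all 43379 rows, so the log2 column runs as non-stem minus stem. Its correlation with the differences reported here is -0.9996 over 28330 probes. By that table's adjusted p-values 5 probes of the 10 genes lie under 0.05. These are both probes of Lyz2 (0.0254 and 0.00165), both of Itgam (0.0294 and 0.00917) and the second probe of Fcgr3 (0.0435), which did not pass here (limma adjusted p = 0.216).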
